A study of Mus musculus with 23 samples.

Results

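The genes described here are 45 genes of the cell cycle and DNA replication, taken by symbol from a deposited table of estimated counts for 24440 genes, and all 45 were found in it. The table holds liver RNA-seq of 23 male mice on a C57Bl/6 background, with each library made from 1 mouse. The mice were 6 to 8 weeks old on arrival and then received normal chow or a high-fat diet (HFD, with 60% of its energy from fat) for 15 weeks. The 3 genotypes were wild type (WT), a knockout of interleukin-4 (IL4KO) and a double knockout of interleukin-10 and interleukin-4 (dKO), so that loss of IL-4 is common to both mutant genotypes. Each genotype was sampled with 4 mice on each diet, except IL4KO on HFD with 3. Neither the alleles nor the age at sampling is stated in the sources used. The comparisons ask how the diet changed the expression of these genes within each genotype, how the genotypes differed on each diet, and whether the diet effect differed between genotypes.

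A dividing cell passes from G1 into S phase when D-type and E-type cyclins release E2F transcription factors from the retinoblastoma proteins. Origins of replication are licensed by CDT1 and CDC6, which load the MCM helicase, and the nucleotide-supply enzymes then feed DNA synthesis. Cyclin A, cyclin B and CDK1 carry the cell into mitosis, under the control of the kinases WEE1 and PKMYT1, which inhibit CDK1, and mitotic genes are transcribed late in the cycle under FOXM1 and the MuvB complexes. Most hepatocytes of an adult liver are quiescent and polyploid and can re-enter the cycle after injury, while immune and ductal cells in the same tissue can also divide. RNA of whole tissue cannot tell a larger number of dividing cells from more RNA per dividing cell.

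Library totals ran from 7114454 to 30205070 counts. Levels are given as CPM, counts scaled to library size with edgeR's trimmed mean of M values. Of the 45 genes, 40 passed edgeR's filter on low counts, which kept 12891 genes of the table. The other 5 were Ccnb1, Cdc6, Plk1, Bub1 and Cdkn3, with counts between 0 and 25 in every library. Tests were edgeR quasi-likelihood F-tests in 1 fit of all libraries, two-sided, with Benjamini-Hochberg adjustment over the 12891 genes, and a gene is said to have risen, fallen or differed only at an adjusted p below 0.05. Folds are log2 fold changes with their standard errors (SE), in the direction HFD minus chow, or dKO or IL4KO minus the genotype named after it. The knocked-out genes check the labels poorly. Il4 had 0 to 3 counts in every library, including WT. Il10 had 0 to 4 counts in each WT and IL4KO library but 41 to 67 in the libraries labelled dKO on chow. It had 6 to 21 in those labelled dKO on HFD, and so was higher where the label names its knockout. Neither the alleles nor the exons counted are given, so these counts cannot decide whether the label is right. Every direction given below for dKO refers to the libraries so labelled. Hepatocyte markers were present throughout, with summed levels of 8 genes between 80500 and 139400 CPM.

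The lowest group mean of the 40 tested genes lay in WT on chow for 22 of them, while the highest lay in dKO on chow for 16 and in WT on HFD for 14. Single libraries stood out: replicate 2 of IL4KO on HFD held the highest level of all 23 libraries for 10 of the 40 genes, replicate 3 of dKO on chow and replicate 4 of WT on HFD for 7 each, and replicate 1 of WT on HFD for 5.

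**Figure D1:**
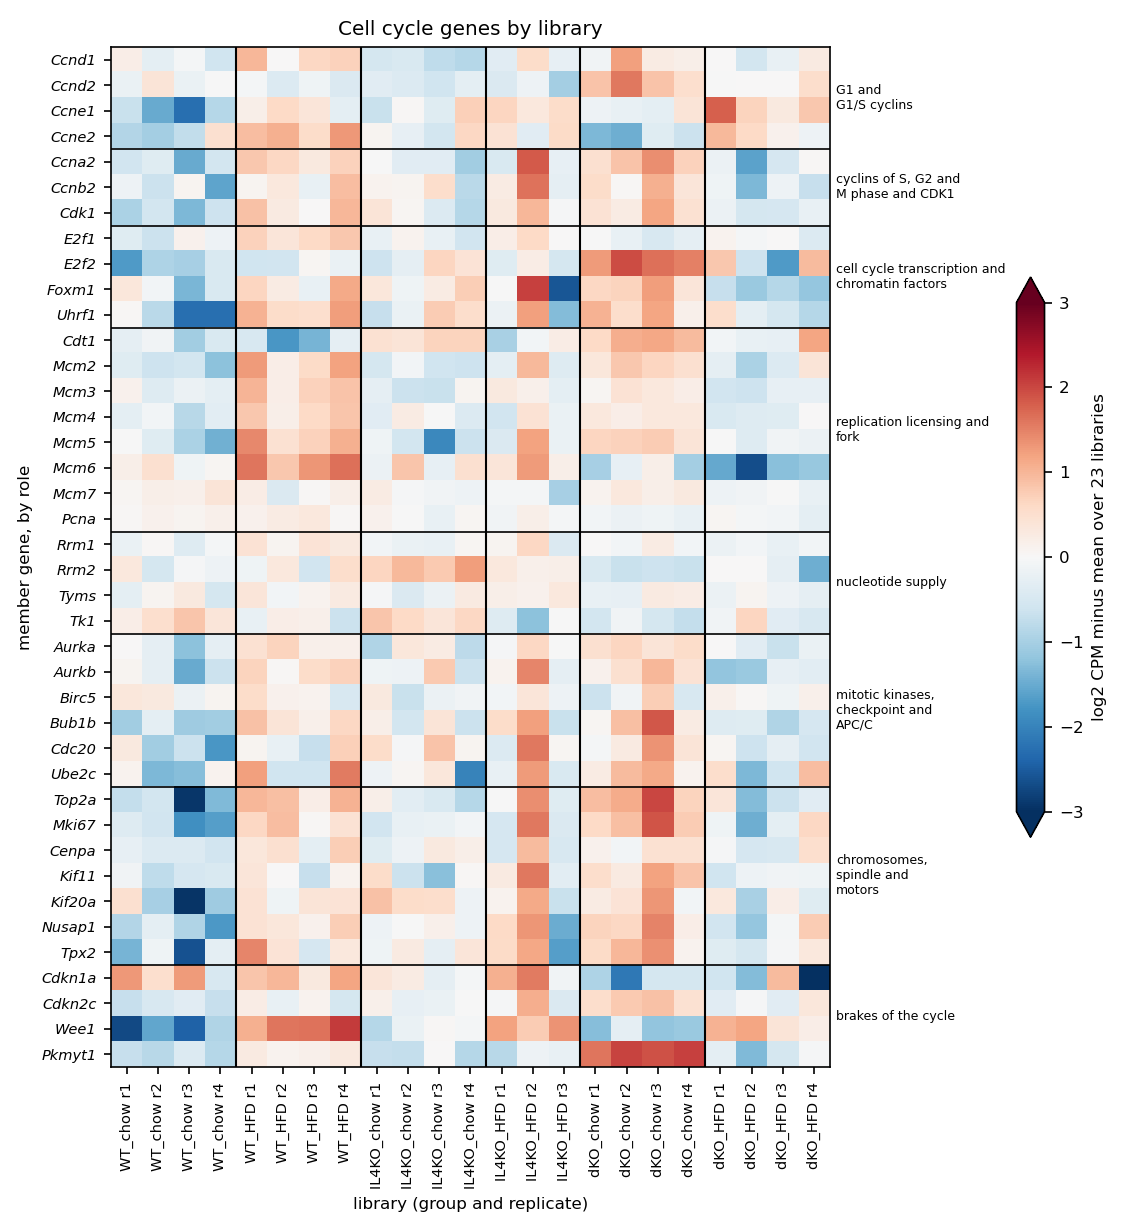
Levels of the 40 tested cell cycle genes (rows, ordered by role) in the 23 libraries (columns, r for replicate), drawn as log2 CPM minus the gene's mean over all libraries. WT on chow is the lowest group for 22 genes, dKO on chow holds the highest group mean of 16 genes and WT on HFD of 14, and replicate 2 of IL4KO on HFD is the highest of the 3 libraries of its group for 32 of the 40 genes and the lowest for 6.

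With HFD, 17 of the 40 genes rose in WT and 0 fell, against 9.63% of all tested genes that rose and 9.84% that fell. The genes were chosen with their direction in this WT effect already known, so the count describes them and is not independent support. The 17 were the E-type cyclins Ccne1 and Ccne2, the cyclin A2 gene Ccna2 and its partner Cdk1, the helicase genes Mcm2 to Mcm6, the transcription and chromatin factors E2f1 and Uhrf1, the reductase gene Rrm1, the checkpoint gene Bub1b, the chromosome genes Top2a and Mki67, and the CDK1-inhibiting kinase genes Wee1 and Pkmyt1. The median log2 fold change of the 40 genes was 0.99, beside -0.0029 for all tested genes. The call was kept by 11 of the 17 whichever library was left out. Bub1b, Ccna2, Ccne1, Mki67, Pkmyt1 and Rrm1 each lost it without at least 1 of the 8 WT libraries, at adjusted p between 0.0501 and 0.114.

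In dKO the same diet change went with 3 genes that rose and 19 that fell, against 19.4% of all tested genes that rose and 20.5% that fell. The risers were Wee1, Ccne1 and Ccne2, as in WT, and the 19 that fell included Ccna2, Ccnb2, Cdk1, Mcm2 to Mcm6, Foxm1, E2f2, Aurka, Aurkb, Top2a and Mki67. The median log2 fold change was -0.84, beside -0.0197 for all tested genes. Without a single library, 11 of the 22 calls were lost at least once, at adjusted p between 0.05004 and 0.1325, which was the case for Aurka, Aurkb, Ccnb2, Ccne1, Cdkn2c, Kif11, Mcm2, Mcm4, Mcm5, Mcm6 and Mki67, most often without replicate 2 or 3 of dKO on HFD or replicate 3 of dKO on chow. Leaving out replicate 4 of dKO on HFD, whose immune cell markers stood apart from those of its group, gave 4 genes that rose and 21 that fell.

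The WT and dKO diet effects rest on different mice. The interaction below uses the WT effect again, whose direction was known when the genes were chosen. Of the 17 genes that rose in WT, 11 fell in dKO, which is 64.7% of the first set and 57.9% of the 19 that fell: Bub1b, Ccna2, Cdk1, Mcm2, Mcm3, Mcm4, Mcm5, Mcm6, Mki67, Pkmyt1 and Top2a. The same overlap was not counted over all tested genes, so these shares describe the listed genes and have no background beside them. The difference between these diet effects, tested as an interaction, was below 0 for 26 of the 40 genes and above 0 for 1, Tk1, against 12.6% of all tested genes in each direction. Its median over the 40 genes was -1.80 on the log2 scale, beside 0.01 for all tested genes. The call held for 21 of the 27 genes whichever library was left out, and Ccnb2, Cenpa, E2f1, Kif11, Rrm1 and Tk1 lost it without at least 1 library, at adjusted p between 0.05001 and 0.106.

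**Figure D2:**
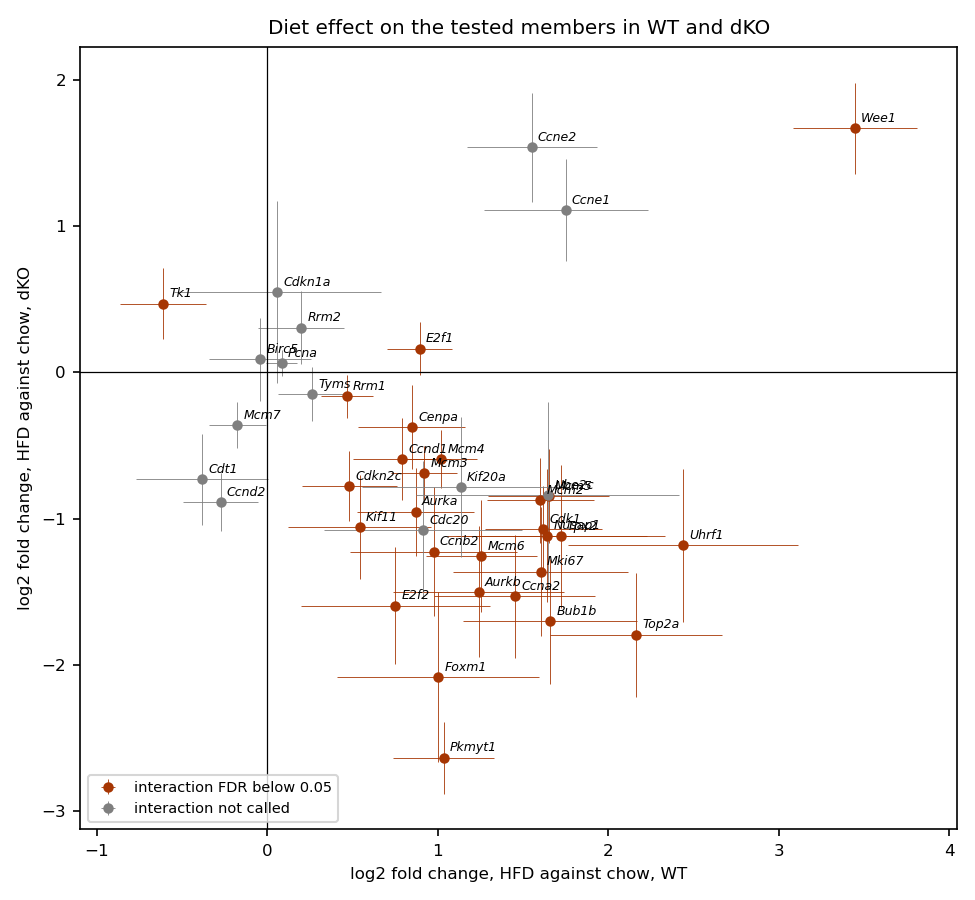
Log2 fold change of HFD against chow in WT (x axis) and in dKO (y axis) for the 40 tested genes, with bars of 1 SE; colour marks an adjusted p below 0.05 for the difference between both diet effects. In all, 28 genes lie at the lower right, positive in WT and negative in dKO, while Wee1, Ccne1 and Ccne2 lie at the upper right. The share of all tested genes at the lower right was not counted.

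The genotypes differed most on chow. There, 22 of the 40 genes were higher in dKO than in WT and 3 were lower (Cdkn1a, Pcna and Tk1), against 24.4% of all tested genes higher and 21.9% lower. On HFD the direction was turned: 16 genes were lower in dKO than in WT and 1, Cdt1, was higher, against 11.6% lower and 12.9% higher among all tested genes. The chow comparison shares its WT libraries with the WT diet effect and its dKO libraries with the dKO diet effect, so these counts are not separate evidence. On chow, 17 of the 25 calls were kept whichever library was left out, and those of Aurka, Aurkb, Ccne1, Cdc20, Cdkn1a, Kif20a, Mcm4 and Pcna were lost at least once, at adjusted p up to 0.143. On HFD only E2f1, Mcm2, Mcm3, Mcm4 and Mcm6 of the 17 kept the call without each single library. The HFD count of 17 was 9 without replicate 1 of WT on HFD, 8 without replicate 4, and 10 and 11 without replicates 2 and 3 of dKO on HFD.

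In IL4KO few of these genes passed the test. Its libraries held 7114454 to 11179738 counts, against 8601857 to 18240402 in WT and 12692787 to 30205070 in dKO. How far this depth and the 3 mice on HFD limited the calls was not tested. The log2 fold change with HFD in IL4KO was positive for 33 of the 40 genes and negative for 7. HFD raised Wee1 and lowered Tk1, against 5.14% of all tested genes that rose and 3.94% that fell. The median log2 fold change of the 40 genes was 0.45, beside -3e-04 for all tested genes. Both calls were lost without replicate 1 of IL4KO on chow, replicate 1 of IL4KO on HFD or replicate 2 of IL4KO on HFD, and 6 genes were called without replicate 3 of IL4KO on HFD. On chow, Rrm2 and Wee1 were higher in IL4KO than in WT and 0 were lower, against 5.93% and 3.68% of all tested genes. This count of 2 was 1 without WT replicate 2 or 3 or IL4KO replicate 3, and 0 without IL4KO replicate 4. On HFD 0 genes differed between IL4KO and WT by edgeR's test, against 3.02% of all tested genes, with 2 at an unadjusted p below 0.05 and 0 by DESeq2. Without replicate 2 of IL4KO on HFD that count was 3, and without replicate 2 of WT on HFD it was 1. The diet effects of IL4KO and WT differed for 0 genes by edgeR, against 0.0465% of all tested genes, with 5 at an unadjusted p below 0.05 and 1 by DESeq2.

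Between the mutants on chow, 13 genes were higher and 3 lower in dKO than in IL4KO, against 23% and 22.2% of all tested genes. Of these 16 calls, 9 were kept without each single library, and the largest adjusted p among the lost ones was 0.2002. On HFD only Mcm6 differed, lower in dKO, against 1.56% of all tested genes that were lower and 0.946% that were higher. That count of 1 became 0 without replicate 2 of IL4KO on HFD, 8 without replicate 3 and 2 without replicate 3 of dKO on HFD. The dKO diet effect was below that of IL4KO for 17 genes and above it for 2, Rrm2 and Tk1, against 11.7% and 12.7% of all tested genes. Of these 19, 3 remained without replicate 2 of IL4KO on HFD and 12 without replicate 2 of dKO on HFD.

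Promoter sequence was examined for what the rule did not use. RefSeq windows of 300 bases on GRCm38.p6, from 250 before to 50 after the start, were matched to 34 of the 45 genes (39 windows), and Aurkb, Ccna2, Ccnd1, Ccnd2, Ccne2, Foxm1, Kif20a, Mcm4, Pkmyt1, Tpx2 and Wee1 had none. They were searched on both strands for the cell cycle homology region CHR (TTTGAA), to which the MuvB complexes bind in late cell cycle promoters, for the CCAAT box (CCAAT), to which NF-Y binds, and for E2F sites. An E2F site was counted where the window held TTCCCGC. It was also counted for the variant form TTGGCGC, and likewise for the form written as TTCGCGC, and these variant forms can overlap each other on opposite strands. The stretches below cover the 150 bases upstream of the start in the direction of the gene, with matched motifs in capitals. The first 4 are mitotic genes with a CHR and CCAAT box, the fifth is Mcm6, whose share of the helicase counts was lower in every dKO library than in WT and IL4KO, and the last is Ccne1, which rose with HFD in WT and dKO and has none of these motifs in its window.

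Top2a (chr11:99024190-99024339, minus strand): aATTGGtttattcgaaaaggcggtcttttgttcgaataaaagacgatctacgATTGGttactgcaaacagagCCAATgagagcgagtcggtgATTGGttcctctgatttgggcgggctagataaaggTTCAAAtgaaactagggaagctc
Mki67 (chr7:135716380-135716529, minus strand): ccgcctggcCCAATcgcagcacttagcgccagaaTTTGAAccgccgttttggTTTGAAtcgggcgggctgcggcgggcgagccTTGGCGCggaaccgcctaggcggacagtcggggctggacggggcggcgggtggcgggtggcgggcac
Cdk1 (chr10:69352913-69353062, minus strand): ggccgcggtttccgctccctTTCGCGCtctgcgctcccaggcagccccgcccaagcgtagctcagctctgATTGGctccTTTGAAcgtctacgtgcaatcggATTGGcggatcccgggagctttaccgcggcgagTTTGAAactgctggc
Kif11 (chr19:37376232-37376381, plus strand): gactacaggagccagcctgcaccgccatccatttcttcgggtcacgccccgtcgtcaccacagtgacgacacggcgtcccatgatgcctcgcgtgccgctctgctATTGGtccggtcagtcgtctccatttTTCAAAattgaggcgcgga
Mcm6 (chr1:128359706-128359855, minus strand): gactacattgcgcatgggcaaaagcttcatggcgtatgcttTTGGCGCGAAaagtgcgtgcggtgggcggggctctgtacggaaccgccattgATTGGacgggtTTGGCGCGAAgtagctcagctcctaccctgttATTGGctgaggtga
Ccne1 (chr7:38107491-38107640, minus strand): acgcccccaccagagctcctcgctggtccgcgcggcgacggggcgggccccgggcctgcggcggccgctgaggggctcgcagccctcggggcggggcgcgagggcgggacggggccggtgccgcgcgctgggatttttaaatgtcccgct

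A CHR was present in 35.9% of the 39 windows and in 17.9% of all 32851 windows of the table, a CCAAT box in 71.8% against 37.4%, and at least 1 E2F motif in 38.5% against 8.07%. All 14 windows with a CHR also held a CCAAT box, a pair found in 6.95% of all windows. The 14 CHR genes were Aurka, Bub1b, Ccnb2, Cdc20, Cdk1, Cdkn3, Cenpa, E2f2, Kif11, Mcm2, Mki67, Plk1, Top2a and Ube2c. Of the 12 that were tested, 5 rose with HFD in WT, 9 fell in dKO and 10 had a lower diet effect in dKO than in WT. Among all tested genes these shares were 9.63%, 20.5% and 12.6%. Of the 17 tested genes whose window held none, 7 rose in WT, 4 fell and 1 rose in dKO, and 8 had a lower and 1 a higher diet effect in dKO. The split was not particular to the CHR. With a CCAAT box, 10 of 21 tested genes rose in WT, 13 fell in dKO and 16 had a lower diet effect in dKO. Without one, 2 of 8 rose in WT, 0 fell in dKO and 2 had a lower diet effect in dKO. With an E2F motif these counts were 7, 7 and 9 of 11, and without one 5, 6 and 9 of 18. A match describes these letters and does not show that a factor binds there.

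Among the mitotic chromosome and spindle genes, Top2a, which encodes DNA topoisomerase II alpha, gave the largest interaction of the 40 genes by size. Its levels in WT were 0.925, 1.06, 0.0906 and 0.564 on chow and 3.34, 3.16, 1.87 and 3.49 on HFD (CPM), those in IL4KO were 1.85, 1.26, 1.14 and 0.836 on chow and 1.6, 4.47 and 1.21 on HFD, and those in dKO were 3.21, 3.67, 6.89 and 2.66 on chow and 2.11, 0.577, 0.975 and 1.25 on HFD. All HFD libraries of WT lay above all chow libraries, and all chow libraries of dKO lay above those on HFD, while in IL4KO only replicate 2 on HFD stood out. The diet effect was 2.163 ± 0.503, adjusted p = 0.00481 in WT and -1.79 ± 0.42, adjusted p = 0.002102 in dKO, and the difference between both was -3.96 ± 0.66, adjusted p = 0.00102. On chow, dKO was above WT by 2.59 ± 0.48, adjusted p = 2.17e-04.

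Mki67, the gene of the proliferation marker Ki-67, followed the same course. In WT it stood at 2.22, 1.96, 0.725 and 0.846 on chow and 4.66, 5.77, 3.04 and 4.03 on HFD (CPM), in IL4KO at 1.95, 2.53, 2.57 and 2.79 on chow and 2.06, 9.16 and 2.159 on HFD, and in dKO at 4.596, 5.65, 11.4 and 5.09 on chow and 2.71, 0.989, 2.42 and 4.61 on HFD. WT libraries on HFD did not overlap those on chow, and in dKO the chow libraries were highest, with replicate 3 far above the rest and replicate 4 on HFD reaching the lowest of them. The diet effect was 1.604 ± 0.51, adjusted p = 0.033 in WT and -1.36 ± 0.44, adjusted p = 0.01902 in dKO, with an interaction of -2.97 ± 0.68, adjusted p = 0.00573. The interaction between dKO and IL4KO was -2.25 ± 0.702, adjusted p = 0.0249, and that adjusted p was 0.295 without replicate 2 of IL4KO on HFD.

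Kif11, a kinesin motor that separates the spindle poles, was at 1.11, 0.652, 0.815 and 0.846 CPM in WT on chow, 1.599, 1.23, 0.701 and 1.31 in WT on HFD, 1.85, 0.723, 0.429 and 1.25 in IL4KO on chow, and 1.49, 3.91 and 0.945 in IL4KO on HFD. In dKO, Kif11 was at 1.82, 1.49, 2.98 and 2.33 CPM on chow and 0.753, 1.07, 1.11 and 1.09 on HFD. Its highest library was replicate 2 of IL4KO on HFD, followed by replicate 3 of dKO on chow. HFD minus chow gave -1.06 ± 0.36, adjusted p = 0.0213 in dKO, and its value in WT was 0.54 ± 0.42, adjusted p = 0.397. Nusap1, a microtubule-binding protein of the spindle, gave 0.278, 0.489, 0.272 and 0.09396 CPM in WT on chow, 0.904, 0.847, 0.701 and 1.15 in WT on HFD, 0.556, 0.632, 0.715 and 0.557 in IL4KO on chow, and 1.03, 1.79 and 0.135 in IL4KO on HFD. In dKO, Nusap1 was at 1.101, 1.05, 2.04 and 0.747 CPM on chow and 0.376, 0.206, 0.604 and 1.17 on HFD. WT on chow was below every library of WT on HFD and of dKO on chow. The difference between dKO and WT on chow was 2.04 ± 0.55, adjusted p = 0.00457, and the interaction was -2.76 ± 0.74, adjusted p = 0.0119. Tpx2, which activates Aurora A on the spindle, was at 0.185, 0.652, 0 and 0.564 CPM in WT on chow, 2.23, 1.001, 0.467 and 0.927 in WT on HFD, 0.649, 0.903, 0.572 and 0.975 in IL4KO on chow, and 1.14, 1.79 and 0.135 in IL4KO on HFD. In dKO, Tpx2 was at 1.15, 1.58, 2.101 and 0.794 CPM on chow and 0.527, 0.453, 0.697 and 0.937 on HFD. It was higher in dKO than in WT on chow by 1.95 ± 0.58, adjusted p = 0.00917 and an interaction of -2.84 ± 0.79, adjusted p = 0.0137.

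Cenpa, the centromeric histone H3 variant, was at 1.94, 1.71, 1.72 and 1.503 CPM in WT on chow, 2.99, 3.31, 1.87 and 3.98 in WT on HFD, 1.76, 2.08, 2.86 and 2.65 in IL4KO on chow, and 1.6, 4.58 and 1.62 in IL4KO on HFD. In dKO, Cenpa was at 2.54, 2.18, 3.27 and 3.27 CPM on chow and 2.26, 1.61, 1.62 and 3.36 on HFD. No pair of groups differed in it, but the diet effects of dKO and WT did (-1.22 ± 0.43, adjusted p = 0.0398). Kif20a, a kinesin of cytokinesis, was higher in dKO than in WT on chow (1.42 ± 0.55, adjusted p = 0.0381), where group ranges of 0.887 to 2.57 and 0 to 1.39 CPM overlapped, and its exons share 1271 bases with Cdc23 on the other strand.

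The cyclins of S, G2 and M phase and CDK1 moved with these genes. Cdk1, the kinase that drives entry into mitosis, was at 0.647, 0.897, 0.453 and 0.846 on chow and 2.64, 1.69, 1.402 and 2.89 on HFD (CPM) in WT, 1.85, 1.45, 1.001 and 0.696 on chow and 1.71, 2.91 and 1.35 on HFD in IL4KO and 1.92, 1.67, 3.33 and 1.96 on chow and 1.204, 0.907, 0.929 and 1.17 on HFD in dKO. Neither the WT nor the dKO groups overlapped between diets, in opposite directions. HFD minus chow gave 1.62 ± 0.35, adjusted p = 0.00255 in WT and -1.07 ± 0.300, adjusted p = 0.006996 in dKO, with an interaction of -2.69 ± 0.46, adjusted p = 0.001099. Ccna2, the cyclin A2 gene, was at 0.832, 0.979, 0.362 and 0.846 CPM in WT on chow, 2.36, 2.08, 1.64 and 2.18 in WT on HFD, 1.298, 0.993, 1.001 and 0.557 in IL4KO on chow, and 0.914, 5.03 and 1.08 in IL4KO on HFD. In dKO, Ccna2 was at 1.87, 2.45, 3.68 and 2.19 CPM on chow and 1.13, 0.3297, 0.882 and 1.33 on HFD. Its highest library was replicate 2 of IL4KO on HFD, and dKO on chow lay above WT and IL4KO on chow. Its interaction was -2.98 ± 0.63, adjusted p = 0.00329 against WT and -2.796 ± 0.66, adjusted p = 0.00544 against IL4KO, the second with an adjusted p of 0.113 without replicate 2 of IL4KO on HFD.

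Ccnb2, the cyclin B2 gene, was at 0.7399, 0.489, 0.906 and 0.188 CPM in WT on chow, 0.904, 1.08, 0.701 and 1.75 in WT on HFD, 0.927, 0.903, 1.29 and 0.418 in IL4KO on chow, and 1.03, 2.91 and 0.675 in IL4KO on HFD. In dKO, Ccnb2 was at 1.29, 0.866, 1.93 and 1.12 CPM on chow and 0.753, 0.247, 0.743 and 0.469 on HFD. It fell with HFD in dKO (-1.23 ± 0.44, adjusted p = 0.0304), and in WT the diet effect was 0.97 ± 0.49, adjusted p = 0.174. The interaction between dKO and WT was -2.201 ± 0.66, adjusted p = 0.0204. Ccnb1, the cyclin B1 gene, was among the genes too low to test, at 0 to 0.278 CPM in WT on chow, 0.467 to 0.695 in WT on HFD, 0.467 to 1.11 in dKO on chow and 0.0753 to 0.391 in dKO on HFD.

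**Figure D3:**
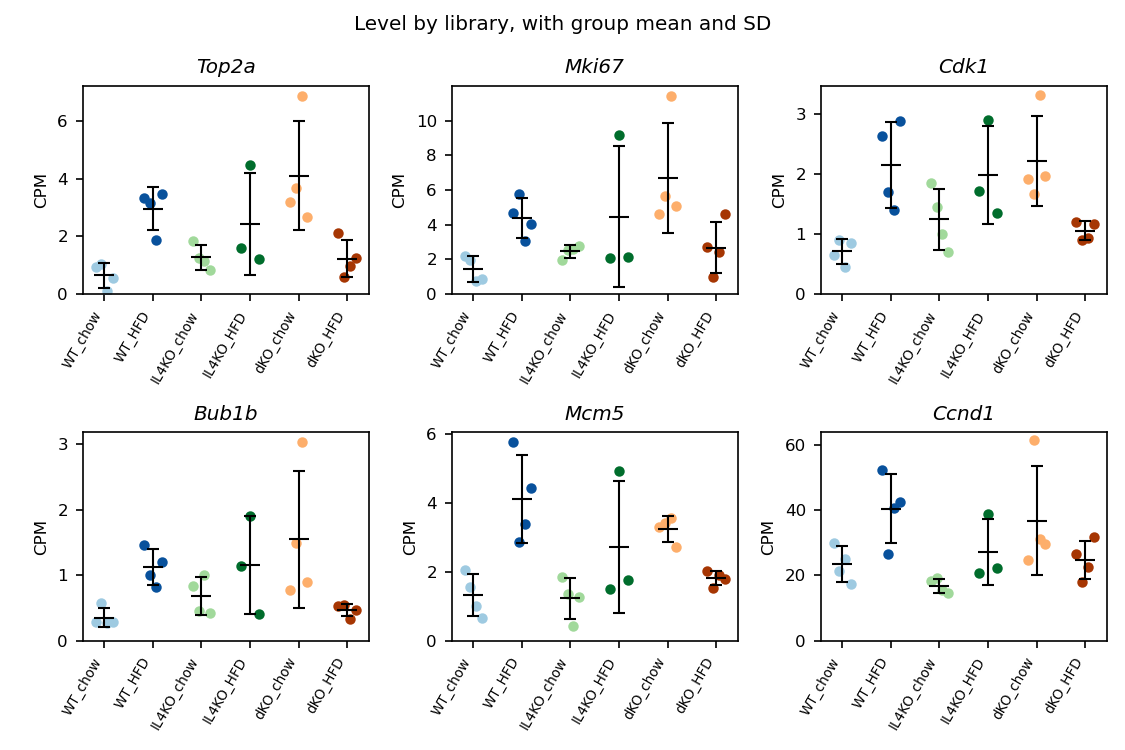
CPM by library (points), group mean and SD (bars; n = 3 in IL4KO on HFD, n = 4 elsewhere) of Top2a, Mki67, Cdk1, Bub1b, Mcm5 and Ccnd1. In each panel WT on HFD has a higher mean than WT on chow, dKO on HFD has a lower mean than dKO on chow, and replicate 2 is the highest library of IL4KO on HFD.

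Mitotic kinases and checkpoint genes held 3 of the interactions. Bub1b, which encodes the checkpoint protein BUBR1, was at 0.278, 0.571, 0.272 and 0.282 on chow and 1.46, 1.001, 0.818 and 1.199 on HFD (CPM) in WT, 0.835, 0.452, 1.001 and 0.418 on chow and 1.14, 1.9 and 0.405 on HFD in IL4KO and 0.766, 1.49, 3.03 and 0.887 on chow and 0.527, 0.536, 0.325 and 0.469 on HFD in dKO. The chow libraries of WT were all below those on HFD, and the reverse held in dKO, where replicate 3 on chow was the highest of all. HFD changed it by 1.66 ± 0.51, adjusted p = 0.0265 in WT and -1.704 ± 0.43, adjusted p = 0.003098 in dKO, with an interaction of -3.36 ± 0.66, adjusted p = 0.00233. Aurka, the kinase of spindle poles, was at 0.832, 0.652, 0.272 and 0.658 CPM in WT on chow, 1.18, 1.39, 0.934 and 0.927 in WT on HFD, 0.371, 1.08, 1.001 and 0.418 in IL4KO on chow, and 0.8001, 1.34 and 0.8097 in IL4KO on HFD. In dKO, Aurka was at 1.197, 1.37, 1.11 and 1.26 CPM on chow and 0.828, 0.618, 0.464 and 0.703 on HFD. Its group mean was highest in dKO on chow and next in WT on HFD, and the difference between dKO and WT on chow was 1.03 ± 0.33, adjusted p = 0.0129, with an interaction of -1.82 ± 0.46, adjusted p = 0.00826.

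Aurkb, the kinase of the chromosomal passenger complex, was at 0.555, 0.408, 0.0906 and 0.282 CPM in WT on chow, 0.904, 0.539, 0.818 and 0.927 in WT on HFD, 0.464, 0.452, 1.001 and 0.279 in IL4KO on chow, and 0.572, 1.68 and 0.405 in IL4KO on HFD. In dKO, Aurkb was at 0.575, 0.777, 1.17 and 0.747 CPM on chow and 0.1505, 0.165, 0.418 and 0.391 on HFD. It fell with HFD in dKO (-1.501 ± 0.45, adjusted p = 0.0109), and its interaction was -2.74 ± 0.67, adjusted p = 0.00745. Cdc20, an activator of the anaphase-promoting complex, was higher in dKO than in WT on chow (1.401 ± 0.54, adjusted p = 0.0363), with ranges of 0.622 to 1.87 and 0.09396 to 0.832 CPM that overlapped. Ube2c, the ubiquitin-conjugating enzyme of that complex, passed no test in any pair, with group means from 0.276 ± 0.2195 CPM in WT on chow to 0.793 ± 0.663 in WT on HFD (SD). Birc5, which encodes survivin, passed none either, with group means between 1.78 ± 0.507 and 2.18 ± 0.363 CPM (SD). Plk1, the polo-like kinase of mitotic entry, and Bub1, a kinetochore kinase, were too low to test, with means of 0.746 ± 0.483 and 0.521 ± 0.211 CPM in dKO on chow against 0.181 ± 0.0779 and 0.131 ± 0.107 in WT on chow (SD). Both were highest in replicate 3 of dKO on chow.

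Transcription and chromatin factors of the cycle split by member. E2f1, an activator of S phase genes, was at 2.59, 2.12, 3.71 and 3.01 CPM in WT on chow, 5.56, 4.39, 5.14 and 6.05 in WT on HFD, 2.88, 3.61, 2.86 and 2.23 in IL4KO on chow, and 3.89, 5.14 and 3.37 in IL4KO on HFD. In dKO, E2f1 was at 3.35, 2.87, 2.39 and 2.75 CPM on chow and 3.61, 3.21, 3.39 and 2.499 on HFD. Every library of WT on HFD exceeded every one on chow, the diet effect was 0.89 ± 0.19, adjusted p = 0.00255 in WT, and on HFD dKO was below WT with a log2 fold change of -0.73 ± 0.18, adjusted p = 0.00585. The interaction of E2f1 was -0.73 ± 0.26, adjusted p = 0.0458. E2f2, a second activator, was at 0.278, 0.571, 0.543 and 0.846 CPM in WT on chow, 0.765, 0.7698, 1.28 and 1.04 in WT on HFD, 0.742, 0.993, 2.002 and 1.67 in IL4KO on chow, and 0.914, 1.45 and 0.8097 in IL4KO on HFD. In dKO, E2f2 was at 3.16, 5.17, 4.14 and 3.73 CPM on chow and 2.26, 0.742, 0.279 and 2.499 on HFD. The dKO chow libraries exceeded all others, with 2.84 ± 0.47, adjusted p = 6.51e-05 against WT and 1.65 ± 0.44, adjusted p = 0.00391 against IL4KO, and HFD lowered it in dKO with a log2 fold change of -1.59 ± 0.401, adjusted p = 0.00328.

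Foxm1, the transcription factor of G2 and M phase genes, was at 0.925, 0.652, 0.181 and 0.4698 CPM in WT on chow, 1.18, 0.847, 0.584 and 1.69 in WT on HFD, 0.927, 0.632, 0.858 and 1.25 in IL4KO on chow, and 0.686, 3.35 and 0 in IL4KO on HFD. In dKO, Foxm1 was at 1.15, 1.195, 1.87 and 0.934 CPM on chow and 0.376, 0.247, 0.325 and 0.234 on HFD. It was lowest in dKO on HFD apart from single libraries, and highest in replicate 2 of IL4KO on HFD, a group in which replicate 3 had no count. The diet effect in dKO was -2.08 ± 0.58, adjusted p = 0.00666, and the interaction was -3.09 ± 0.83, adjusted p = 0.0119. Uhrf1, which carries DNA methylation through replication, was at 0.555, 0.245, 0 and 0 CPM in WT on chow, 1.25, 0.847, 0.818 and 1.47 in WT on HFD, 0.278, 0.452, 1.001 and 0.836 in IL4KO on chow, and 0.457, 1.45 and 0.135 in IL4KO on HFD. In dKO, Uhrf1 was at 1.25, 0.836, 1.4 and 0.607 CPM on chow and 0.828, 0.412, 0.325 and 0.234 on HFD. WT on chow was lowest, with a pair of libraries at 0, and the difference was 2.44 ± 0.67, adjusted p = 0.0142 for diet in WT and 2.28 ± 0.66, adjusted p = 0.00758 for dKO against WT on chow. The interaction of Uhrf1 was -3.62 ± 0.86, adjusted p = 0.00625.

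In the replication licensing group, 5 of 8 tested genes rose with HFD in WT and the same 5, Mcm2 to Mcm6, fell in dKO. Mcm2 was at 3.05, 2.53, 2.63 and 1.597 CPM in WT on chow, 9.73, 4.54, 5.96 and 9.32 in WT on HFD, 2.69, 3.703, 2.57 and 2.51 in IL4KO on chow, and 3.2, 7.82 and 2.97 in IL4KO on HFD. In dKO, Mcm2 was at 5.03, 6.96, 6.18 and 5.55 CPM on chow and 3.24, 1.98, 2.93 and 5.16 on HFD. WT on HFD and dKO on chow were high, and the diet effect was 1.602 ± 0.32, adjusted p = 0.00146 in WT and -0.87 ± 0.29, adjusted p = 0.0208 in dKO. Mcm3 was at 5.09, 3.51, 4.08 and 3.76 CPM in WT on chow, 9.595, 5.31, 7.59 and 8.45 in WT on HFD, 3.802, 2.89, 2.86 and 4.88 in IL4KO on chow, and 5.71, 5.14 and 3.78 in IL4KO on HFD. In dKO, Mcm3 was at 4.79, 6.303, 5.78 and 5.32 CPM on chow and 3.09, 2.97, 3.85 and 3.905 on HFD. Its diet effect was 0.92 ± 0.19, adjusted p = 0.00218 in WT and -0.69 ± 0.19, adjusted p = 0.0055 in dKO, and on HFD dKO was below WT in every library with a log2 fold change of -1.17 ± 0.19, adjusted p = 1.64e-04. Mcm4 was at 3.61, 4.24, 2.45 and 3.57 CPM in WT on chow, 7.996, 5.08, 6.89 and 8.12 in WT on HFD, 3.52, 5.33, 4.43 and 3.34 in IL4KO on chow, and 2.97, 6.15 and 3.91 in IL4KO on HFD. In dKO, Mcm4 was at 5.602, 5.17, 5.602 and 5.602 CPM on chow and 3.24, 3.38, 3.48 and 4.53 on HFD. All WT libraries on HFD exceeded those on chow and all dKO libraries on HFD lay below those on chow. Mcm5 was at 2.04, 1.55, 0.996 and 0.658 CPM in WT on chow, 5.77, 2.85, 3.39 and 4.42 in WT on HFD, 1.85, 1.35, 0.429 and 1.25 in IL4KO on chow, and 1.49, 4.92 and 1.75 in IL4KO on HFD. In dKO, Mcm5 was at 3.304, 3.405, 3.56 and 2.71 CPM on chow and 2.03, 1.52, 1.904 and 1.796 on HFD. Its interaction was -2.49 ± 0.48, adjusted p = 0.00201, beside -2.48 ± 0.43, adjusted p = 0.00129 for Mcm2, -1.61 ± 0.27, adjusted p = 9.92e-04 for Mcm3 and -1.61 ± 0.29, adjusted p = 0.00135 for Mcm4.

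Mcm6 fell with HFD in dKO together with Mcm2 to Mcm5, and on HFD it was lower in dKO than in the other genotypes. It was at 3.52, 4.32, 2.81 and 3.19 on chow and 9.595, 5.47, 7.94 and 10.03 on HFD (CPM) in WT, 2.69, 5.599, 2.57 and 4.32 on chow and 4, 7.71 and 3.51 on HFD in IL4KO and 1.48, 2.57, 3.501 and 1.45 on chow and 0.979, 0.371, 1.21 and 1.33 on HFD in dKO. On HFD the dKO libraries were all below those of WT and IL4KO, and on chow, where Mcm2, Mcm4 and Mcm5 were higher in dKO than in WT, Mcm6 had a log2 fold change of -0.63 ± 0.34, adjusted p = 0.137. On HFD the difference was -3.14 ± 0.37, adjusted p = 6.64e-06 against WT and -2.44 ± 0.41, adjusted p = 0.00235 against IL4KO, the second with an adjusted p of 0.0573 without replicate 2 of IL4KO on HFD. The diet effect was 1.26 ± 0.33, adjusted p = 0.00991 in WT and -1.26 ± 0.38, adjusted p = 0.0121 in dKO, with an interaction of -2.51 ± 0.502, adjusted p = 0.00261.

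The products of Mcm2 to Mcm7 form 1 hexamer, so the share of Mcm6 in their summed CPM was taken. CPM is not divided by transcript length, and the share therefore compares libraries and not genes. It was 14.9% to 19.6% in WT on chow, 19.7% to 21.7% in WT on HFD, 12.9% to 23.3% in IL4KO on chow and 17.9% to 21% in IL4KO on HFD. In dKO it was 5.34% to 11.5% on chow and 2.47% to 6.5% on HFD, below every WT and IL4KO library. The other 5 genes summed to 24.37 to 28.38 CPM in dKO on chow, within the 21.63 to 39.21 of WT on HFD. Mcm6 lies at chr1:128331575-128359705 (GRCm38.p6), 2.66 Mb from Il10 at chr1:131019845-131024970. Il10 is a gene that the dKO label names, and its counts were higher in the dKO libraries. Mcm3, the other of these genes on that chromosome, is 110 Mb away.

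**Figure D4:**
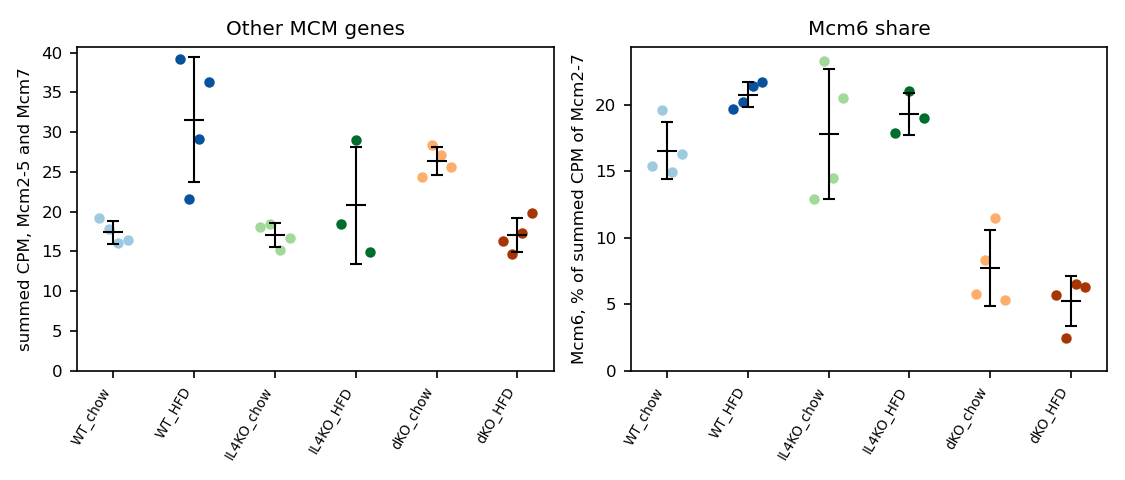
Left, summed CPM of Mcm2, Mcm3, Mcm4, Mcm5 and Mcm7 by library; right, Mcm6 as a percentage of the summed CPM of Mcm2 to Mcm7; points are libraries and bars the group mean and SD. The sum on the left is high in WT on HFD and dKO on chow, while the share on the right is at most 11.5% in dKO and at least 12.9% in WT and IL4KO.

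Cdt1, the licensing factor that loads the helicase, was at 1.94, 2.202, 1.09 and 1.69 CPM in WT on chow, 1.67, 0.616, 0.818 and 1.96 in WT on HFD, 3.34, 3.16, 3.86 and 3.9 in IL4KO on chow, and 1.14, 2.23 and 2.83 in IL4KO on HFD. In dKO, Cdt1 was at 3.69, 5.29, 5.54 and 4.71 CPM on chow and 2.26, 2.02, 1.997 and 5.62 on HFD. It was higher in dKO than in WT on both diets, by 1.47 ± 0.34, adjusted p = 0.001397 on chow and 1.12 ± 0.36, adjusted p = 0.0259 on HFD. On HFD replicate 4 of dKO was above the rest of its group, and without it the adjusted p was 0.139. Pcna, the sliding clamp of the replication fork, was at 12.9, 13.9, 13.5 and 14.1 CPM in WT on chow, 13.8, 15.2, 15.8 and 13.1 in WT on HFD, 13.9, 12.6, 10.9 and 13.2 in IL4KO on chow, and 11.8, 14.3 and 12.1 in IL4KO on HFD. In dKO, Pcna was at 12.02, 11.2, 11.6 and 10.97 CPM on chow and 13.2, 12.2, 12.1 and 10.3 on HFD. Its groups lay close together, with dKO lower than WT with a log2 fold change of -0.25 ± 0.09, adjusted p = 0.02901 on chow and -0.27 ± 0.09, adjusted p = 0.03396 on HFD. Mcm7 passed no test, with group means from 4.21 ± 1.42 CPM in IL4KO on HFD to 6.15 ± 0.4198 in dKO on chow (SD). Cdc6 was too low to test, at a mean of 0.452 ± 0.22 CPM in WT on HFD and 0.133 ± 0.0481 in WT on chow.

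The nucleotide-supply genes differed among themselves. Rrm2, the small subunit of ribonucleotide reductase, was at 11.2, 6.198, 8.695 and 7.99 CPM in WT on chow, 8.204, 11.2, 5.96 and 12.98 in WT on HFD, 14.1, 17.5, 15.6 and 21.6 in IL4KO on chow, and 11.1, 9.95 and 10.1 in IL4KO on HFD. In dKO, Rrm2 was at 6.51, 5.56, 5.78 and 5.602 CPM on chow and 9.03, 9.03, 7.43 and 3.12 on HFD. IL4KO on chow was the highest group, above every WT and dKO chow library, with 1.01 ± 0.25, adjusted p = 0.0136 against WT, and dKO was below IL4KO on chow with a log2 fold change of -1.55 ± 0.25, adjusted p = 5.34e-05. The call against WT was lost without WT replicate 2 (adjusted p = 0.0559) or IL4KO replicate 4 (0.0519). Its partner subunit Rrm1 was at 9.25, 10.8, 8.06 and 10.2 CPM in WT on chow, 14.5, 11.2, 14.2 and 13.1 in WT on HFD, 10.1, 9.302, 9.15 and 11.1 in IL4KO on chow, and 11.2, 16.5 and 7.83 in IL4KO on HFD. In dKO, Rrm1 was at 10.7, 10.01, 12.7 and 10.1 CPM on chow and 9.41, 10.1, 9.15 and 9.998 on HFD. It rose with HFD in WT by 0.47 ± 0.15, adjusted p = 0.034, and its interaction was -0.63 ± 0.21, adjusted p = 0.03303.

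Tk1, the thymidine kinase of the salvage route, had a course opposite to that of the mitotic genes. Its levels were 8.69, 10.7, 13.6 and 9.77 CPM in WT on chow, 6.47, 8.699, 8.41 and 4.798 in WT on HFD, 13.4, 11.4, 9.72 and 11.7 in IL4KO on chow, and 5.71, 3.13 and 7.42 in IL4KO on HFD. In dKO, Tk1 was at 5.08, 6.99, 5.19 and 4.53 CPM on chow and 7, 11.8, 5.898 and 5.31 on HFD. It was high in WT and IL4KO on chow and low in dKO on chow. It fell with HFD in IL4KO (-1.11 ± 0.298, adjusted p = 0.0224), it was lower in dKO than in WT on chow (-0.96 ± 0.25, adjusted p = 0.00338), and its interactions were above 0, at 1.08 ± 0.35, adjusted p = 0.0299 against WT and 1.58 ± 0.39, adjusted p = 0.00658 against IL4KO. Exons of Tk1 share 83 bases with Afmid on the other strand. Tyms, thymidylate synthase, passed no test, with group means from 3.14 ± 0.369 to 4.001 ± 0.278 CPM (SD), and pseudogene copies of Tyms and Pcna are annotated, whose reads may be split from theirs.

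G1 cyclins and E-type cyclins differed from each other. Ccnd1, the cyclin D1 gene, was at 30.1, 21.4, 25.1 and 17.3 CPM in WT on chow, 52.3, 26.7, 40.8 and 42.4 in WT on HFD, 18.4, 19.1, 15.4 and 14.5 in IL4KO on chow, and 20.8, 38.9 and 22.1 in IL4KO on HFD. In dKO, Ccnd1 was at 24.6, 61.5, 31.3 and 29.8 CPM on chow and 26.6, 17.9, 22.6 and 31.9 on HFD. IL4KO on chow was lowest and replicate 2 of dKO on chow highest, with dKO above IL4KO on chow by 1.13 ± 0.295, adjusted p = 0.00465 and an interaction against WT of -1.38 ± 0.399, adjusted p = 0.0194. Ccnd2, the cyclin D2 gene, was at 6.29, 9.54, 6.25 and 7.14 CPM in WT on chow, 6.95, 5.39, 6.66 and 5.34 in WT on HFD, 5.66, 5.42, 4.72 and 5.85 in IL4KO on chow, and 5.37, 6.48 and 3.51 in IL4KO on HFD. In dKO, Ccnd2 was at 13.3, 22.1, 13.3 and 10.3 CPM on chow and 7.15, 7.25, 7.34 and 10.5 on HFD. The chow libraries of dKO exceeded all WT and IL4KO libraries, by 1.02 ± 0.204, adjusted p = 4.08e-04 against WT on chow and 1.45 ± 0.22, adjusted p = 2.11e-05 against IL4KO, and HFD lowered it in dKO with a log2 fold change of -0.88 ± 0.198, adjusted p = 0.00134.

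Ccne1 and Ccne2 encode the E-type cyclins that activate CDK2 at the start of S phase. Ccne1 was at 0.555, 0.245, 0.0906 and 0.4698 CPM in WT on chow, 1.11, 1.54, 1.28 and 0.763 in WT on HFD, 0.556, 0.993, 0.715 and 1.67 in IL4KO on chow, and 1.6, 1.23 and 1.48 in IL4KO on HFD. In dKO, Ccne1 was at 0.862, 0.806, 0.759 and 1.31 CPM on chow and 3.69, 1.61, 1.21 and 1.796 on HFD. WT on chow was the lowest group and replicate 1 of dKO on HFD the highest library, and the diet effect was 1.75 ± 0.48, adjusted p = 0.0136 in WT and 1.11 ± 0.35, adjusted p = 0.0139 in dKO. The second had an adjusted p of 0.104 without that library. Ccne2 was at 0.647, 0.571, 0.725 and 1.88 CPM in WT on chow, 2.64, 2.92, 1.99 and 3.44 in WT on HFD, 1.39, 1.08, 0.858 and 2.09 in IL4KO on chow, and 1.83, 1.01 and 2.02 in IL4KO on HFD. In dKO, Ccne2 was at 0.431, 0.388, 0.992 and 0.794 CPM on chow and 2.71, 2.06, 1.44 and 1.17 on HFD. Its diet effect was 1.55 ± 0.38, adjusted p = 0.00673 in WT and 1.54 ± 0.37, adjusted p = 0.00236 in dKO, while in IL4KO it was 0.26 ± 0.45, adjusted p = 0.768. The interaction between dKO and WT was -0.64 ± 0.597, adjusted p = 0.451 for Ccne1 and -0.01, adjusted p = 0.995 for Ccne2.

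Among the brakes of the cycle, Wee1 had the smallest adjusted p of the 40 genes for the diet effect in WT. Its levels in WT were 1.02, 2.45, 1.27 and 3.95 on chow and 15.8, 23.02, 23.4 and 32.4 on HFD (CPM), in IL4KO 4.08, 6.502, 7.72 and 7.24 on chow and 17.5, 12.8 and 19.2 on HFD and in dKO 3.02, 6.18, 3.21 and 3.36 on chow and 15.6, 17.1, 9.89 and 8.59 on HFD. In each genotype every HFD library lay above every chow library. The diet effect was 3.45 ± 0.37, adjusted p = 8.85e-06 in WT, 1.39 ± 0.36, adjusted p = 0.0204 in IL4KO and 1.67 ± 0.31, adjusted p = 4.19e-04 in dKO, and that of dKO was smaller than that of WT with a log2 difference of -1.78 ± 0.49, adjusted p = 0.0142. On chow Wee1 was higher in IL4KO than in WT (1.53 ± 0.404, adjusted p = 0.0199).

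Pkmyt1, the membrane-bound kinase that also inhibits CDK1, was high in a single group. It was at 0.647, 0.571, 0.815 and 0.564 on chow and 1.39, 1.23, 1.28 and 1.42 on HFD (CPM) in WT, 0.649, 0.632, 1.14 and 0.557 on chow and 0.572, 1.01 and 0.945 on HFD in IL4KO and 3.73, 5.08, 4.61 and 5.13 on chow and 0.903, 0.371, 0.743 and 1.09 on HFD in dKO. The lowest dKO chow library was at 3.73 CPM and the highest library of any other group at 1.42. The difference on chow was 2.82 ± 0.27, adjusted p = 1.53e-07 against WT and 2.66 ± 0.27, adjusted p = 4.61e-07 against IL4KO, and HFD lowered it in dKO with a log2 fold change of -2.64 ± 0.25, adjusted p = 5.6e-07. In WT the diet effect was 1.03 ± 0.298, adjusted p = 0.0176, but the deposited log2 values gave -0.038 with an adjusted p of 0.939 by limma. Its exons share 319 bases with Paqr4 on the other strand, and the strand setting of the counting is not given in the sources used here, so that reads of such pairs cannot be told apart. The same holds for 12 other genes of the 45.

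Cdkn1a, which encodes the CDK inhibitor p21, was at 110, 63.4, 108 and 31.9 CPM in WT on chow, 79.8, 89.6, 54.8 and 101 in WT on HFD, 57.3, 53.1, 36.8 and 42.9 in IL4KO on chow, and 92.8, 131 and 41.7 in IL4KO on HFD. In dKO, Cdkn1a was at 23.5, 9.92, 30.99 and 30.8 CPM on chow and 29.5, 17.8, 85.7 and 3.44 on HFD. It was lower in dKO than in WT on chow (-1.73 ± 0.63, adjusted p = 0.0329), without overlap, and spread widely in dKO on HFD. Cdkn2c, which encodes the CDK4 and CDK6 inhibitor p18, was at 1.67, 1.96, 2.17 and 1.69 CPM in WT on chow, 3.27, 2.39, 3.04 and 1.91 in WT on HFD, 3.15, 2.35, 2.43 and 2.79 in IL4KO on chow, and 2.74, 6.15 and 2.02 in IL4KO on HFD. In dKO, Cdkn2c was at 4.12, 4.93, 5.31 and 3.88 CPM on chow and 2.18, 2.72, 2.18 and 3.59 on HFD. It was highest in dKO on chow and in replicate 2 of IL4KO on HFD, with 1.28 ± 0.26, adjusted p = 4.53e-04 for dKO against WT on chow and -0.78 ± 0.24, adjusted p = 0.01297 for diet in dKO. The interaction of Cdkn2c against WT was -1.26 ± 0.37, adjusted p = 0.0177. Cdkn3, a phosphatase that acts on CDK2, had at most 10 counts in a library and was not tested.

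**Figure D5:**
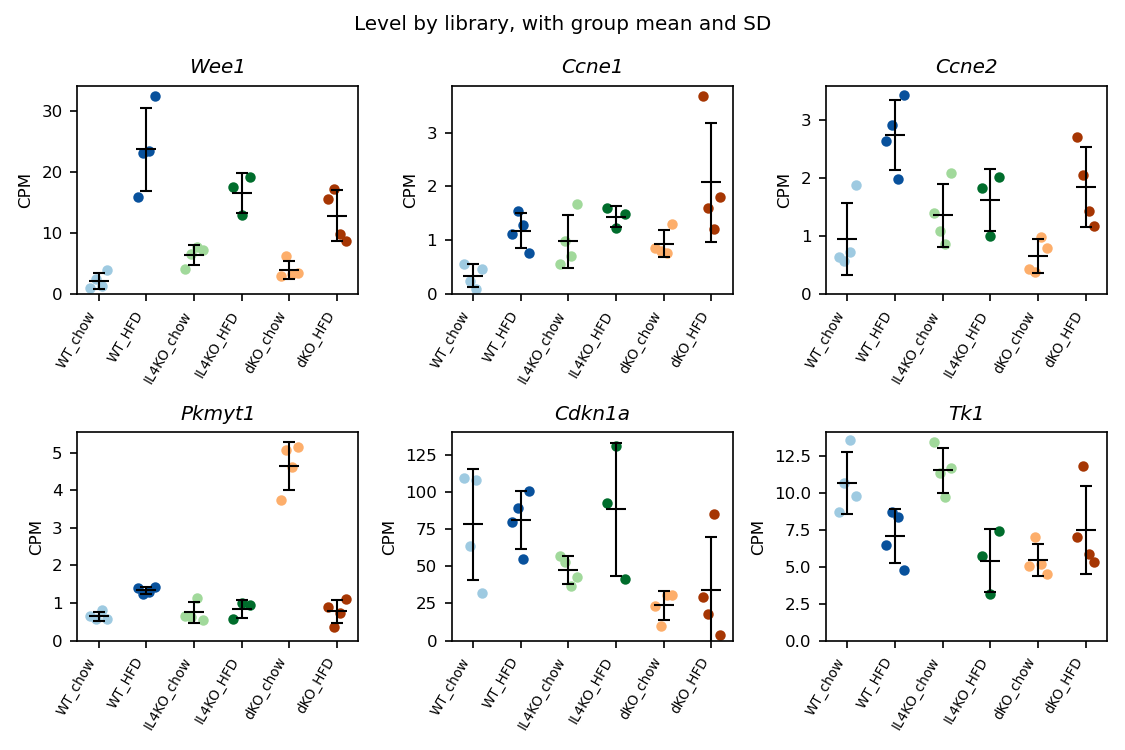
CPM by library (points), group mean and SD (bars; n = 3 in IL4KO on HFD, n = 4 elsewhere) of Wee1, Ccne1, Ccne2, Pkmyt1, Cdkn1a and Tk1, drawn from the E-type cyclins, the brakes of the cycle and the nucleotide-supply genes. Wee1 is higher on HFD in each genotype, Pkmyt1 is high in dKO on chow, and Cdkn1a and Tk1 are lower in dKO than in WT on chow.

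Of 79 other cell cycle genes listed as a comparison set, 61 were tested. This set was also chosen with earlier results of these data known. In WT 20 of them rose with HFD and 1 fell (32.8% and 1.64%, against 9.63% and 9.84% of all tested genes), among them Spc25 (1.76 ± 0.29, SE), a kinetochore protein, Chaf1a (1.54 ± 0.302), a histone chaperone of the fork, and Cdk6 (1.66 ± 0.33), a partner of the D-type cyclins, with E2f4 (-0.33 ± 0.11) as the 1 that fell. In dKO 7 rose and 12 fell, and the 19.7% that fell is near the 20.5% of all tested genes, while the 11.5% that rose is below their 19.4%. Those that fell included Incenp (-1.19 ± 0.23), of the chromosomal passenger complex, and Pold1 (-0.999 ± 0.22), a DNA polymerase delta subunit, while Mcm10 (1.37 ± 0.28) rose. On chow 22 were higher and 6 lower in dKO than in WT (36.1% and 9.84%, against 24.4% and 21.9%), among them Incenp (2.01 ± 0.26) and Nek2 (1.303 ± 0.21), a centrosome kinase, against Mcm10 (-1.45 ± 0.28) and Cks1b (-0.95 ± 0.21). On HFD 3 were higher and 13 lower (4.92% and 21.3%, against 12.9% and 11.6%). The interaction between dKO and WT was below 0 for 20 and above 0 for 2 (32.8% and 3.28%, against 12.6% each), with -3.26 ± 0.63 for the kinetochore gene Cenpf, -3.32 ± 0.74 for the cytokinesis gene Racgap1 and 1.76 ± 0.396 for Mcm10. In IL4KO 1 of the 61 rose with HFD and 0 fell, against 5.14% and 3.94% of all tested genes. The medians of the 61 genes were 0.41 for diet in WT, -0.20 for diet in dKO and -0.59 for the interaction.

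Targets of p53, which include Cdkn1a, were listed apart, with 15 tested beside it. HFD raised 5 (33.3%, against 9.63% of all tested genes) and lowered 0 in WT, among them Btg2 (3.25 ± 0.57), an antiproliferative gene, and the death receptor gene Tnfrsf10b (2.54 ± 0.38). For Btg2, replicate 4 of WT on HFD was at 331.3 CPM, against 47 to 92.46 in the rest of its group and 7.829 to 28.02 in WT on chow. In dKO it raised 1 and lowered 5 (6.67% and 33.3%, against 19.4% and 20.5%), with Tnfrsf10b at -1.402 ± 0.32. The interaction between dKO and WT was below 0 for 6 (40%, against 12.6%), with Tnfrsf10b at -3.95 ± 0.498 and Phlda3 at -2.58 ± 0.54. In IL4KO 3 rose, including Phlda3 (1.41 ± 0.39), and 0 fell, against 5.14% and 3.94% of all tested genes.

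Markers of several other cell types were also high in dKO on chow, and their part in these results was not tested. On chow the summed level of 13 neutrophil genes was 188.7 to 528.1 CPM in dKO and 2.808 to 30.34 in WT, and all 12 tested were higher in dKO. The same comparison held for 8 of 9 Kupffer cell genes (800.0 to 1032 CPM against 304.4 to 557.3), 7 of 9 genes of monocyte-derived macrophages (635.8 to 1028 against 79.44 to 125.2), 8 of 10 T and NK cell genes (13.41 to 19.81 against 3.442 to 7.665), 2 of 3 B and plasma cell genes (8.216 to 21.33 against 3.442 to 7.029) and 7 of 7 cholangiocyte genes (463.5 to 838.6 against 44.74 to 52.44). Several genes of these lists passed the filter on low counts through dKO on chow, so their direction was largely fixed in advance. Outside that group the neutrophil genes Elane, Ctsg and Ms4a3 reached at most 0.625, 0.278 and 0.234 CPM, and the cholangiocyte gene Cftr 0.859. Spp1 is in both the macrophage and the cholangiocyte list and carries most of both sums in dKO. Without it they were 186.3 to 251.8 CPM against 44.47 to 83.24 for macrophages and 42.06 to 78.44 against 8.807 to 10.45 for cholangiocytes. Of 8 hepatocyte genes, 5 were lower, at summed levels of 80500 to 91670 CPM against 117500 to 120900. Among all tested genes, 24.4% were higher and 21.9% lower in dKO than in WT on chow. With HFD in dKO, 12 of 12 neutrophil genes, 9 of 9 Kupffer cell genes and 7 of 7 cholangiocyte genes fell, against 20.5% of all tested genes. So did 8 of 10 T and NK cell genes, 3 of 3 B and plasma cell genes and 6 of 9 macrophage genes. These counts include the genes that passed the filter through dKO on chow, and are not separate support.

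In WT, where 17 cell cycle genes rose with HFD, 0 of the tested genes of the neutrophil, Kupffer, T and NK, and B and plasma cell lists rose, and neither did those of the cholangiocyte list, of which 1 fell. Macrophage genes rose in 1 of 9 and stellate cell and fibroblast genes in 3 of 9, with summed levels of 366.1 to 553.0 CPM on HFD against 241.7 to 293.5 on chow for the latter. Of the macrophage list, 4 genes were higher in WT on HFD without overlap. They were Mmp12 (1.771 to 3.154 CPM against 0.0906 to 0.571), Gpnmb (0.539 to 1.947 against 0 to 0.185), Trem2 (0.872 to 2.433 against 0.188 to 0.647) and Spp1 (62.97 to 97.43 against 34.96 to 41.99). Ccr2, Ly6c2, Cd9, Itgax and Lyz2 overlapped. The share of all tested genes without overlap was not counted. Of 7 endothelial genes, 1 rose and 2 fell. Among all tested genes, 9.63% rose and 9.84% fell with HFD in WT. Erythroid markers, whose precursors divide in a liver with haematopoiesis, rose in 0 of 6 in WT and were higher in 0 of 6 in dKO on chow, where 1 was lower, and Rhag, which belongs to that list, was at 0 in every library. Of the neutrophil list, Fcnb was at 0 in every library outside dKO on chow.

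Replicate 2 of IL4KO on HFD, the library with the highest level of 10 of the 40 genes, also stood apart in macrophage markers (333.9 CPM against 97.15 and 83.26 in its group) and stellate cell and fibroblast markers (779.1 against 335.9 and 262.1). Without Spp1, at 162.5 CPM against 43.55 and 37.78, the macrophage sum was 171.3 CPM against 53.6 and 45.47. The other 7 cholangiocyte genes summed to 7.6 CPM in it against 5.143 and 5.127. Replicate 3 of dKO on chow, the highest for 7 genes, held the highest neutrophil (528.1 CPM) and macrophage (1028 CPM) sums of all libraries. Replicate 4 of dKO on HFD had a neutrophil sum of 99.51 CPM against 3.237 to 4.121 in the other 3 of its group.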

How the data were processed

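Per the labels' protocols, livers were perfused and a stranded mRNA kit was used on total RNA. Per the submitters' processing notes the authors used bcl2fastq 2.16, TopHat2 2.0.8, Partek and the mm10 build; any annotation, counting or strand setting is not given in the sources used here. Estimated counts by gene symbol were deposited by the authors, of which 88.3% to 94.1% were whole in a library, and log2 values for 14078 genes, which served as an alternative only.

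Rounded to whole numbers, the counts were fitted with edgeR 4.0.16 (R 4.3.3) over 23 libraries in 6 groups, by robust quasi-likelihood with trimmed mean of M values scaling, edgeR's filter by group and 17 residual degrees of freedom. Levels are CPM. SEs are the size of the log2 fold change divided by the square root of its F. Contrasts were 9 pairs and 3 interactions. Within groups, log2(CPM + 1) correlated at 0.962 to 0.994, and no pair of libraries held identical values. Library totals of 7114454 to 30205070 counts limit the precision of genes near 1 CPM.

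The 45 genes, role lists, comparison lists and marker lists were chosen with earlier results of these data known, and their direction in the WT diet effect was among those results. All 45 could be named; library values are given for genes with the smallest adjusted p of their role or an interaction, and up to 4 comparison genes per direction by adjusted p. Tests were also run on simulated counts of the 12891 genes. Changes were planted in genes drawn at random from all levels, with every other gene unchanged. Recovery was not split by level, so it does not describe genes near 1 CPM. False calls are the share of called genes that were not planted. For the diet effect in WT they recovered 44.8% of 1.5-fold, 80.6% of 2-fold and 87.9% of 4-fold changes, with 2.07% false calls. In the same order, they recovered 46.3%, 76.1% and 89.4% for the diet effect in IL4KO, with 4.08% false calls. For dKO against WT on chow they recovered 59.7%, 74.6% and 95.5%, and false calls were higher, at 6.13%. Alternatives were other scaling, filters, limma 3.58.1, DESeq2 1.42.0, thinned counts and leaving out each library. Replicate numbers are in accession order and pair no samples. Positions and promoter sequences are RefSeq's on GRCm38.p6, and exon overlaps come from GENCODE's annotation of that build.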

Additional observations from a re-analysis of the deposited data

Results flagged for a closer look

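Within groups of 4 libraries, 11 of 200 comparisons of a gene in a group had a library farther from the others than Dixon's 95% limit allows, and chance flags about 1 in 20. In dKO on HFD, replicate 4 had 10.54 CPM of Ccnd2 against 7.151 to 7.338 in the others and 5.624 CPM of Cdt1 against 1.997 to 2.258, and it is the library with the higher neutrophil marker sum. Replicate 1 of that group was low in Kif11 (0.753 CPM against 1.071 to 1.115). In dKO on chow, replicate 3 was high in Mki67 (11.44 CPM against 4.596 to 5.646), replicate 2 was high in Wee1 (6.183 against 3.016 to 3.361) and the same library was low in Mcm4 (5.168 against 5.602 in the other 3). In WT on chow, replicate 4 was high in Ccne2 (1.879 CPM against 0.571 to 0.725) and replicate 2 in Bub1b (0.571 against 0.272 to 0.282), and in WT on HFD replicate 2 was low in Kif20a (0.847 against 1.285 to 1.321). In IL4KO on chow, replicate 2 was high in Mcm2 (3.703 CPM against 2.507 to 2.690) and replicate 3 in Pkmyt1 (1.144 against 0.557 to 0.649). IL4KO on HFD, with 3 libraries, was not tested in this way.

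The diet effect differed between dKO and WT by edgeR's interaction test for 27 genes. The log2 difference, dKO minus WT, was negative for Top2a (-3.96), Pkmyt1 (-3.67), Uhrf1 (-3.62), Bub1b (-3.36), Foxm1 (-3.09), Ccna2 (-2.98), Mki67 (-2.97), Tpx2 (-2.84), Nusap1 (-2.76), Aurkb (-2.74), Cdk1 (-2.69), Mcm6 (-2.51), Mcm5 (-2.49), Mcm2 (-2.48), E2f2 (-2.35), Ccnb2 (-2.20), Aurka (-1.82), Wee1 (-1.78), Mcm4 (-1.61), Mcm3 (-1.61), Kif11 (-1.60), Ccnd1 (-1.38), Cdkn2c (-1.26), Cenpa (-1.22), E2f1 (-0.73) and Rrm1 (-0.63). It was positive for Tk1 (1.08). The adjusted p ran from 2.98e-05 for Pkmyt1 to 0.0458 for E2f1. Differences from IL4KO were called for 19 genes. The log2 difference, dKO minus IL4KO, was negative for Pkmyt1 (-2.83), Ccna2 (-2.80), Foxm1 (-2.71), Top2a (-2.70), Bub1b (-2.51), Aurkb (-2.25), Mki67 (-2.25), Ccnb2 (-2.04), Kif11 (-2.03), Mcm5 (-1.95), Cdk1 (-1.70), Mcm6 (-1.67), Mcm2 (-1.57), Aurka (-1.41), Ccnd1 (-1.28), Cdkn2c (-1.23) and Mcm3 (-1.14), and positive for Rrm2 (1.03) and Tk1 (1.58). These adjusted p values ran from 9.03e-04 for Pkmyt1 to 0.0481 for Rrm2, and 3 of the 19 calls remained without replicate 2 of IL4KO on HFD. Both families share the dKO libraries.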

How the results depend on the processing

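Each of the 148 log2 fold changes called for these genes was recomputed under 33 other settings, 10 of them other than leaving out a library. A setting that gave no adjusted p for a gene, as where the filter removed it, was passed over. Of 4843 recomputed values, 399 were no longer called and 1 changed sign: the WT diet effect of Pkmyt1, at -0.038 (adjusted p = 0.939) in the deposited log2 values. In all, 65 of the 148 kept their call under every setting that gave them a value, and for some of these, such as the interaction of Aurkb between dKO and WT, that was 31 of the 33. Scaling shifted the median of all genes by at most 0.092 on the log2 scale. Counts of called genes that moved by over 1.5 times were as follows. The WT diet effect had 11 instead of 17 in the deposited log2 values. IL4KO against WT on chow had 1 instead of 2 with limma-voom and 5 in the deposited log2 values. dKO against WT on HFD had 8 instead of 17 in the deposited log2 values and 10 with counts thinned to the smallest library. dKO against IL4KO on HFD had 2 instead of 1 with DESeq2 and 0 with the compared groups alone. The difference between the IL4KO and WT diet effects had 1 instead of 0 with DESeq2.

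Leaving out 1 library at a time gave 12 to 21 called genes for diet in WT, 0 to 6 in IL4KO and 15 to 27 in dKO. It gave 0 to 3 for IL4KO against WT on chow and 0 to 3 on HFD, 19 to 29 for dKO against WT on chow and 8 to 19 on HFD, and 12 to 17 for dKO against IL4KO on chow and 0 to 8 on HFD. The interactions had 0 to 0 (IL4KO minus WT), 21 to 29 (dKO minus WT) and 3 to 22 (dKO minus IL4KO). For the other changes the cause was not tested. No paired analysis was possible because the labels give no replicate numbers shared between groups. Levels near 1 CPM rest on few counts, and how far this limits the calls of the low mitotic genes was not tested.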
